A study of Homo sapiens with 3 samples.

Results

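The stretch from A2881 to G3600 of human 28S ribosomal RNA covers about the expansion segment called ES27L, and every adenosine and cytidine in it is described here. The members were taken by base and position number alone. They number 361, that is 34 A and 327 C, out of the 2492 A and C of the rRNA, which has 5070 nt (14.5%). G and C make up 86.7% of the stretch, against 69.4% of the whole rRNA.

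Expansion segments are insertions in the rRNA of eukaryotes that are absent from the conserved bacterial core. ES27L is among the longest of them and extends from the surface of the large subunit as double-helical arms. It is known to be mobile, seen near the L1 stalk in some structures and near the exit of the peptide tunnel in others, and factors that act on the emerging chain contact it there. Dimethyl sulfate methylates A and C on the Watson-Crick face where that face is neither paired nor covered, and the enzyme that copies the RNA errs at methylated bases. A high mutation signal is therefore read as accessibility.

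The cells were HEK293, a human embryonic kidney line, named HEK293T/17 in the growth protocol. One culture condition received the solvent DMSO, another 10 µM cycloheximide and the last 10 µM of the probe RiboBright, each for 30 min. Cycloheximide binds the E site of the large subunit and stops elongation. The labels do not give the structure of RiboBright. Each treatment has 1 library, so differences stand without replicates and without p-values, and they compare libraries. The files hold no read counts, so the depth behind a value is unknown and no counting interval is given. The deposited table is numbered along the rRNA. Its length is that of RNA28SN5 in RefSeq's annotation of GRCh38.p14, which runs from 113348 to 118417 on a sequence with no assigned chromosome. RNA28SN1 to RNA28SN4 run from 5054 to 5077 nt and lie on chromosomes 21 and 22. The sequences of these copies were not compared here, and the deposited values do not separate them.

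The stretch holds a hairpin that is predicted from sequence alone, with accessible bases on its first strand and low signal on the facing strand. That first strand is printed below among the 5 clusters of accessible bases of the stretch. A cluster is a run of at least 4 A or C whose DMSO signal reached 0.240, the 75th percentile of DMSO over all 28S, with at most 5 nt between neighbours. Capitals mark the A and C at or above that level in DMSO, and each cluster is shown with 4 nt on either side. T stands for U, as in the deposited position names.
G2917 to G2935: ggcgCgAAgCggggCtggg
G2944 to G2959: gcggCtggACgAggcg
G3041 to C3063: gcccCgCgccctCtctctCtctc
G3395 to C3432: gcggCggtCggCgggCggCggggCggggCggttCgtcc
G3495 to G3525: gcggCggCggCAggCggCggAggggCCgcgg
Most letters of the sequence from G3041 are C and T, and most of the other 4 sequences are G. The clusters held 30 of the 56 positions at or above the level, and the other 26 were scattered.

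Values were present for only part of the stretch. DMSO listed 195 of the 361 A and C (54.0%), cycloheximide 198 (54.8%) and RiboBright 104 (28.8%). Outside the stretch, of 2131 A and C, DMSO lacked 106, cycloheximide 65 and RiboBright 397. All 3 libraries listed 104 positions, DMSO and cycloheximide a further 74, cycloheximide alone 20 and DMSO alone 17. No library listed the remaining 146. Every one of those 146 lay between C3073 and C3378, so an uninterrupted 306 nt in the middle of the segment, with 40.4% of its A and C, was not measured. That part holds the longest run of C in the stretch, 11 nt from C3332 to C3342, shown here with its neighbours because no value can be read in it.
G3329 to G3350: gcgcccccccccccaccccacg

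**Figure D1:**
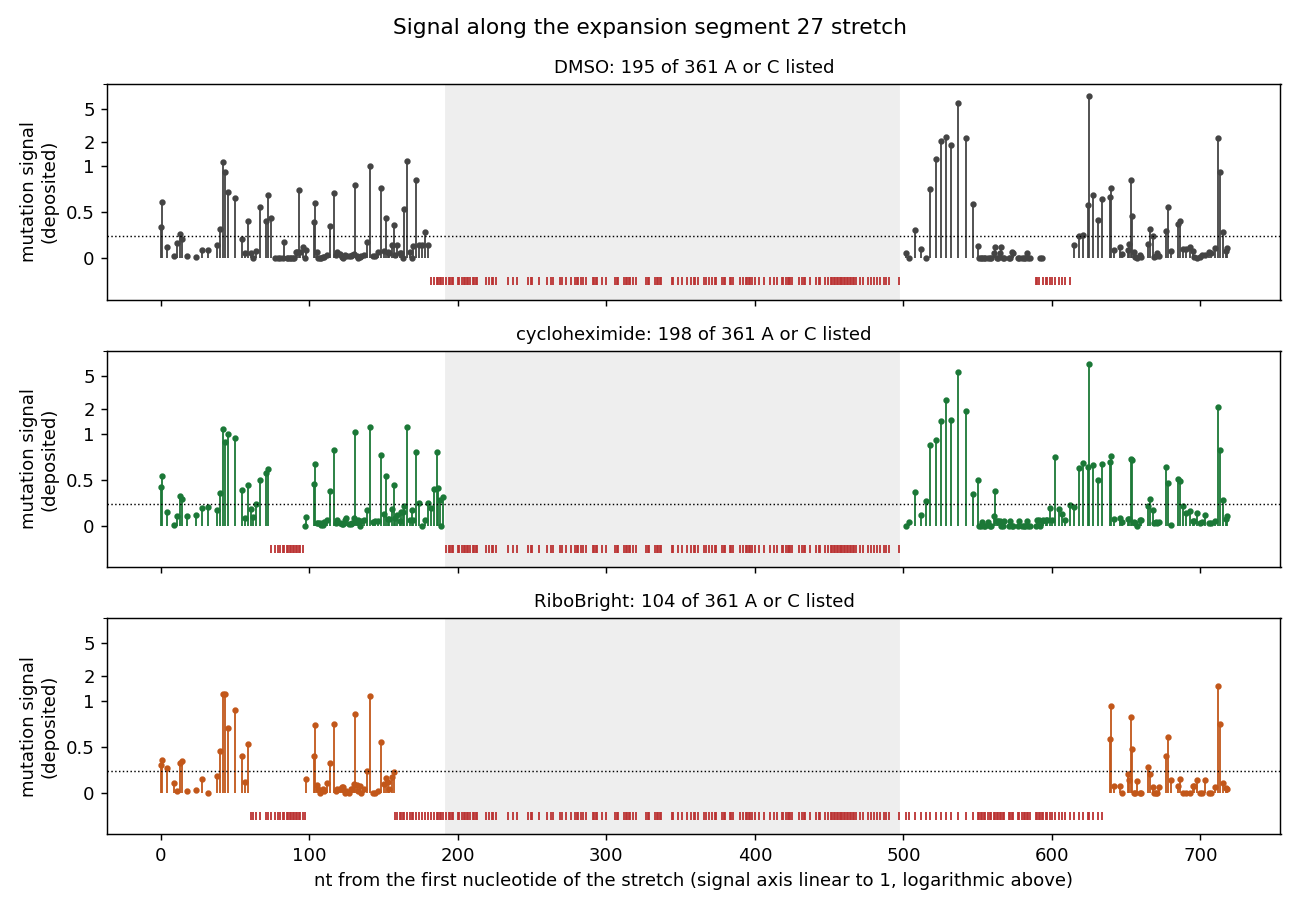
Deposited mutation signal (vertical axis, no unit, linear to 1 and logarithmic above) of each A and C against its distance in nt from the first nucleotide of the stretch, with 1 panel per library. Red ticks mark A and C without a value, the grey band the 306 nt listed in no library, and the dotted line the level of 0.240; the tall group after the band is present in DMSO and cycloheximide and has no value in RiboBright.

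The libraries also differed in where the listed parts ended. DMSO ran from A2881 to C3061 without a break, whereas cycloheximide lacked A2955 to C2977 and RiboBright lacked C2942 to C2978. After the gap, cycloheximide listed all 108 A and C from A3383 to A3599. DMSO lacked 13 of them, all between C3470 and C3493. RiboBright began only at C3520, so the predicted hairpin from G3395 to C3458 has no RiboBright value. The neighbouring stretches, A2401 to T2880 and C3601 to C4100, were listed completely in every library. The GC-rich stretch from C436 to G1311, with 83.1% G and C, had 77.0% of its A and C listed in DMSO and 20.2% in RiboBright.

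Exact zeros were frequent among the listed values. They made up 21.5% of DMSO values in the stretch (42 of 195) and 2.32% outside it, so that 47.2% of all DMSO zeros of 28S lay here. The share of zeros was 12.6% in cycloheximide (25 of 198) and 21.2% in RiboBright (22 of 104), against 2.52 and 5.31% outside. The GC-rich stretch from C436 to G1311 had 11.6% zeros in DMSO, 11.2% in cycloheximide and 23.9% in RiboBright. The neighbouring stretches had at most 0.405% in DMSO and cycloheximide, and 1.84 and 7.69% in RiboBright. All 42 zeros of DMSO were cytidines, and 27 of them lay in runs of at least 4 C. Between C3361 and C3480, 25 of 44 DMSO values were 0 and the smallest value above 0 was 0.061. In the blocks from A2881 to C3000 and from T3001 to G3120 that smallest value was 0.005.

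**Figure D2:**
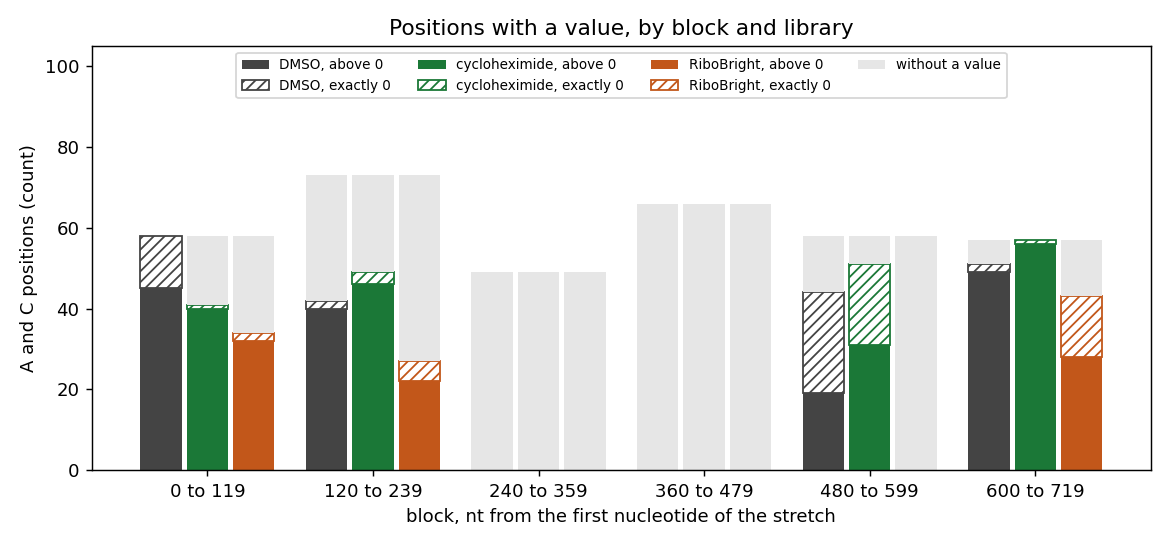
Number of A and C positions (vertical axis) in 6 blocks of 120 nt, given by distance from the first nucleotide of the stretch, for each library. Solid bars count values above 0, hatched bars exact zeros and grey bars positions without a value; the blocks at 240 to 359 and 360 to 479 nt have no value in any library.

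Adenosines were rare and mostly accessible. Of the 34, DMSO listed 18, and 13 of those (72.2%) reached the level of 0.240, against 27.3% of the adenosines outside the stretch. Their median signal was 0.421 in DMSO, 0.476 in cycloheximide and 0.343 in RiboBright, while adenosines elsewhere had 0.131, 0.138 and 0.135. A3506 was the most reactive member of all, with 7.126 in DMSO and 6.905 in cycloheximide, and it ranked 4 among all adenosines of 28S in both. RiboBright did not list it. A2923 stood at 1.116 in DMSO, with 1.151 in cycloheximide and 1.213 in RiboBright. Its neighbour A2924 had 0.935, 0.908 and 1.222 in the same order, so this pair was accessible in all 3 libraries. A3012, the lone A within a pyrimidine tract, had 0.795, 1.04 and 0.859. A3442, in the strand opposite the predicted hairpin's reactive cytidines, was low at 0.061 in DMSO and 0.101 in cycloheximide, although it was predicted unpaired.

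Cytidines had a lower median signal than adenosines in every library. In DMSO 43 of the 177 listed (24.3%) reached the level, against 23.1% of the cytidines outside the stretch. The median over the 177 listed in DMSO was 0.064, with 0.0735 in cycloheximide and 0.072 in RiboBright, close to the 0.079, 0.082 and 0.079 of cytidines elsewhere. The 15 highest DMSO signals of the stretch comprised 12 of the 177 listed cytidines and 3 of the 18 listed adenosines. C3418 had 5.768 in DMSO and 5.509 in cycloheximide, 74.9 times the median cytidine of 28S in DMSO, and ranked 2 among cytidines in DMSO and 4 in cycloheximide. C3593 reached 2.188 in DMSO, with 2.071 in cycloheximide and 1.525 in RiboBright, and was the highest member in RiboBright. Its neighbour C3594 had 0.935, 0.825 and 0.747. Further positions among the 15 were C3047 with 1.15 in DMSO and 1.188 in cycloheximide, and C3022 with 1.006, 1.202 and 1.128 in the 3 libraries. C3053 had 0.848 in DMSO and 0.804 in cycloheximide. C3534 was at 0.848 in DMSO, 0.726 under cycloheximide and 0.824 under RiboBright. None of the 15 changed by 2-fold in any library that listed it: after scaling, log2 ratios to DMSO ran from -0.61 to 0.17 under cycloheximide, and from -0.65 to 0.25 at the 6 that RiboBright listed.

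The signal of a cytidine went with the length of the run of C it stood in. Cytidines with no C beside them had a median DMSO signal of 0.1595 over 60 listed, and 27 of them (45.0%) reached the level. In runs of 2 the median was 0.058 over 30, in runs of 3 it was 0.066 over 15, and in runs of 4 or more it was 0.020 over 72, of which 5 reached the level (6.94%). The same order of the longest and shortest runs was seen outside the stretch, with medians of 0.120 for single C and 0.043 for runs of at least 4. Cytidines with G on both sides had a median of 0.210 over 33 in the stretch and 0.206 over 175 elsewhere. Cytidines with C on both sides had 0.005 over 51 and 0.0365 over 196. A C tract with low signal around an accessible A is shown as an example, with capitals as before.
C3000 to C3040: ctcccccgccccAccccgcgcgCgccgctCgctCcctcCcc
The 13 cytidines in the 3 runs that flank A3012, from C3002 to C3016, stayed at or below 0.049 in DMSO, 0.083 in cycloheximide and 0.100 in RiboBright.

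**Figure D3:**
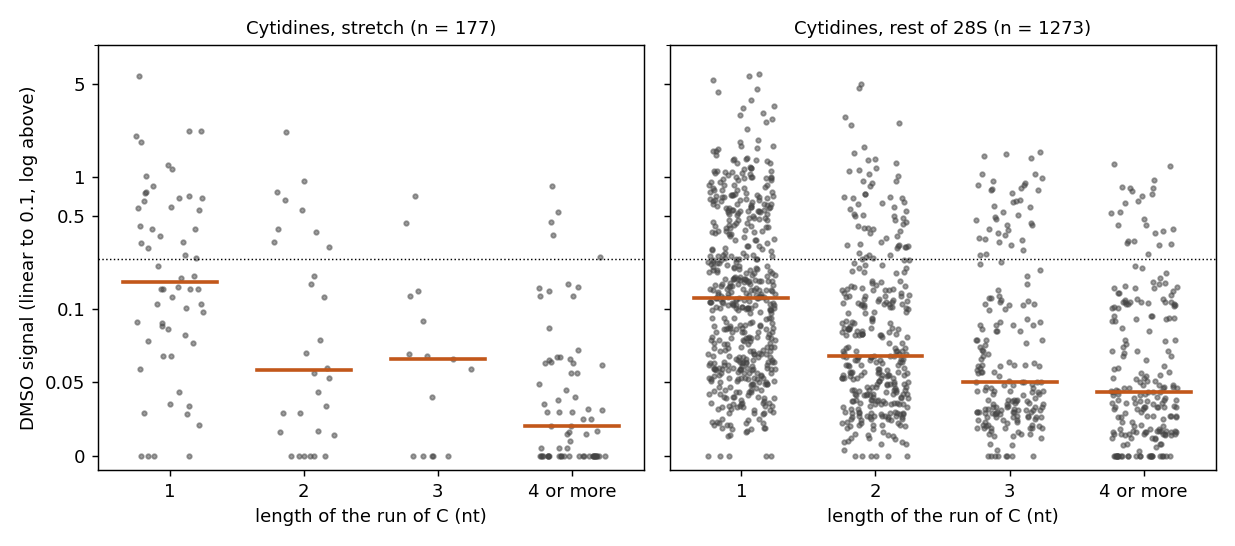
DMSO signal (vertical axis, no unit, linear to 0.1 and logarithmic above) of each listed cytidine by the length in nt of its run of C, for the stretch and for the rest of 28S. Points are single cytidines, bars are medians and the dotted line is the level of 0.240; medians in the stretch go from 0.1595 for single C to 0.020 for runs of 4 or more.

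Most accessible positions coincided with loops of a structure predicted from sequence alone. The minimum free energy fold of the 720 letters, computed without the signal and without proteins or the rest of the ribosome, paired 558 nt (77.5%). DMSO listed 57 A and C that the fold left unpaired, with a median of 0.421, and 42 of them (73.7%) reached the level. It listed 138 that the fold paired, with a median of 0.035, and 14 of them (10.1%) did. All 42 DMSO zeros fell on paired positions. In cycloheximide the medians were 0.501 unpaired and 0.058 paired, and in RiboBright 0.349 and 0.040. The 104 positions of RiboBright and the 198 of cycloheximide thus gave the same order. Within the fold, A and C in internal loops had a DMSO median of 0.576 over 29 and those in bulges 0.421 over 19. Those inside a helix had 0.034 over 90 and those at a helix end 0.039 over 48. Where pairs were limited to a span of 150 nt, the difference between unpaired and paired medians went from 0.386 to 0.107. A prediction is a model, and no measured structure was used here. Run length and predicted pairing overlap: 64 of the 72 listed cytidines in runs of at least 4 were predicted paired, with a median of 0.015, and the 8 unpaired ones had 0.2005. For single cytidines the medians were 0.091 over 35 paired and 0.576 over 25 unpaired.

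**Figure D4:**
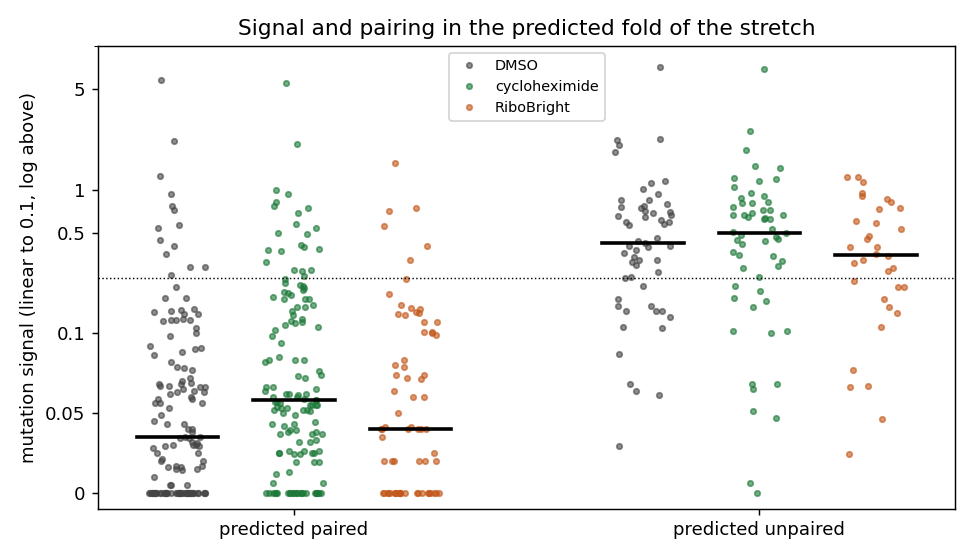
Mutation signal (vertical axis, no unit, linear to 0.1 and logarithmic above) of the listed A and C of the stretch, split by pairing in the predicted fold and coloured by library. Points are single positions, bars are medians and the dotted line is the level of 0.240; DMSO medians are 0.035 for paired and 0.421 for unpaired positions.

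The predicted hairpin from G3395 to C3458 put both kinds of cytidine on facing strands. Its first strand is a series of G pairs and runs split by single C, and its second strand is mostly C, as the whole sequence shows with capitals as before.
G3395 to C3458: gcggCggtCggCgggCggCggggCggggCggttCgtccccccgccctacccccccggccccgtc
On the first strand, C3399 had 0.751 in DMSO and 0.874 in cycloheximide, and C3403 had 1.236 and 0.932. The signal was higher at the next positions, with 2.046 and 1.411 at C3406, 2.237 and 2.565 at C3410, and 1.837 and 1.456 at C3413. It peaked at C3418, given above, and was 2.207 and 1.896 at C3423 and 0.591 and 0.342 at C3428 in the loop. These 8 were chosen by their DMSO signal, and in cycloheximide all 8 also reached the level. The remaining cytidine of this strand, C3396 near its start, was 0 in DMSO and 0.270 in cycloheximide. On the second strand, from C3431 to the end, 15 of the 22 A and C were exactly 0 in DMSO and none exceeded 0.137. In cycloheximide 12 of the 22 were 0 and the highest had 0.492. The fold left C3399, C3406, C3410, C3413, C3423 and C3428 unpaired and joined C3403 to G3450 and C3418 to G3437. C3418, the most reactive cytidine of the stretch, was therefore placed inside a helix by the prediction. On the second strand the fold left A3442 unpaired in an internal loop, yet it had only 0.061 in DMSO and 0.101 in cycloheximide. Under cycloheximide 6 of the 8 positions were lower than in DMSO after scaling, with a median log2 ratio of -0.36 and a range from -0.85 at C3428 to 0.14 at C3399, and none reached 2-fold.

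The last cluster lay in a like sequence of G with single C. In DMSO, C3505 had 0.576, C3509 had 0.686, C3512 had 0.421 and A3515 had 0.647, beside A3506 at 7.126. In cycloheximide these had 0.635, 0.660, 0.501 and 0.666. C3520 was at 0.668 in DMSO, 0.690 under cycloheximide and 0.588 under RiboBright, and C3521 had 0.770, 0.758 and 0.949, so the part of the cluster that RiboBright reached was accessible there too. Near the 3′ end of the stretch the reactive pair C3593 and C3594 stands in the sequence printed next.
G3585 to G3600: ggccggcgCCtAgcag
The fold joined this pair to G2903 and G2902, yet both C3593 and C3594 were at or above 0.747 in every library. Of the 107 A and C before the gap, 79 were predicted paired. The partner of 76 lay inside the 306 nt without values, and that of 3 lay after them. Partners of A and C are T and G, which were not read here. The count therefore does not give the share of a helix that was measured. The gap's own A and C, 97 of them predicted paired, have no value.

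Cycloheximide was then set against DMSO. Libraries were brought to the DMSO median, taken over all values above 0 in 28S, by multiplying cycloheximide by 0.945 (-0.08 in log2) and RiboBright by 0.912 (-0.13), and changes are relative to these shifts. Ratios are log2 of the scaled signal plus 0.0104, which is 10% of that DMSO median, so small signals show less than their full change. Calls needed a ratio of 2-fold or more and a scaled signal of 0.240 in the higher library, a rule of size and not a test. Of 178 positions compared 59 reached the level and 8 were called, 6 higher and 2 lower (13.6%). Over all 28S the rule called 4.59% of 588 positions, 2.72% higher and 1.87% lower. It called 13.8% of 123 positions in the stretch from C436 to G1311, and 0 of 58 and 0 of 45 in the neighbouring stretches.

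The 2 falls were C3045, whose signal went from 0.541 to 0.212 (log2 ratio -1.39), and C3059, which went from 0.287 to 0.061 (-2.13). Both stand within the cluster printed from G3041, whose other 2 accessible bases, C3047 and C3053, kept within 1.5-fold. Beside C3045, C3044 had 0 in DMSO and 0.152 in cycloheximide, and beside C3059, C3057 had 0.142 and 0, so neighbouring low values moved both ways. Those neighbours, C3044 and C3057, were picked with their values known. The rises were at C3396, C3431, C3443, C3499, C3502 and C3558. C3396, at the foot of the hairpin, was 0 in DMSO and 0.270 in cycloheximide, and no fold is given. C3431 had 0.137 and 0.492, a log2 ratio of 1.69, and C3443 had 0.124 and 0.373, a ratio of 1.43. Both open a run of C on the hairpin's second strand. C3499 had 0.241 and 0.622, a ratio of 1.25, and C3502 had 0.254 and 0.686, a ratio of 1.32. These 2 begin the G-rich cluster that ends at C3521. C3558 went from 0.296 in DMSO to 0.639 in cycloheximide, with 0.399 in RiboBright, and its ratio of 1.00 under cycloheximide was the least of the 5 that have one.

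All but 1 of the calls under cycloheximide lay where RiboBright had no value. Of the 26 positions past the level that RiboBright did not list, 7 were called (26.9%), against 1 of the 33 that it listed (3.03%), which was C3558. Coverage is not given in the files, and its part in these calls was not tested. The median log2 ratio over the 178 positions was 0.05, with quartiles of -0.26 and 0.63, beside a median of -0.01 over all 2200 positions of 28S. Of the 59 past the level, 47 stayed within 1.5-fold of DMSO (79.7%), against 476 of 529 outside the stretch. Across the 178 positions, which share libraries and are no independent replicates, the Pearson correlation of log2 signals between cycloheximide and DMSO was 0.854. Outside the stretch it was 0.919 over 2022 positions. From C436 to G1311 it was 0.787 over 332 positions, and 82 of 123 past the level stayed within 1.5-fold there. In the neighbouring stretches it was 0.975 and 0.952.

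By the rule of 2-fold and a signal of 0.240, the calls under RiboBright in the stretch were falls, and other settings added a few rises. Of 104 positions compared with DMSO 35 reached the level, and 5 were called, all lower (14.3%). Over all 28S the rule called 5.22% of 498 positions, with 2.61% lower and 2.61% higher. It called 22.5% of 40 positions in the stretch from C436 to G1311, 6 higher and 3 lower. In the neighbouring stretches it called 1.59% of 63 and 7.69% of 52. Without scaling the stretch described here had 1 call higher and 5 lower. At 1.5-fold it had 3 higher and 10 lower, and with the level at the DMSO median 5 higher and 10 lower. C3566 was at 0.379 in DMSO and 0.503 in cycloheximide but at 0.077 in RiboBright, and its log2 ratio to DMSO was -2.27. The adjacent C3567 had 0.404, 0.486 and 0.153, with a ratio of -1.47. The 2 cytidines form a bulge in the fold, and both were accessible in DMSO and cycloheximide but below the level in RiboBright. C3033 had 0.443, 0.542 and 0.158, a ratio of -1.55. C3549 had 0.246, 0.167 and 0.067, a ratio of -1.84, and was already lower in cycloheximide than in DMSO. A3596, next to the reactive C3593 and C3594, had 0.288, 0.274 and 0.102, a ratio of -1.53. The bulged pair C3558 and C3559, only a few nt before C3566, was kept in RiboBright, with 0.399 and 0.603.

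Of those 5 falls, 4 lay in the last block, from C3481 to G3600, where RiboBright had 15 zeros among 43 values. The 15 positions had DMSO signals between 0.014 and 0.122 and cycloheximide signals between 0.024 and 0.218. DMSO had 2 zeros among 51 values in that block and cycloheximide 1 among 57. The smallest RiboBright value above 0 in the block was 0.046, against 0.014 in DMSO and 0.012 in cycloheximide, and C3576 and C3577, picked with their values known, both had 0.074. The part of this coarse scale in the falls was not tested. The block's median log2 ratio to DMSO was -0.78, whereas it was 0.20 over the 34 positions from A2881 to C3000 and 0.03 over the 27 from T3001 to G3120. Over the whole stretch the median was -0.16, beside -0.08 over all 1838 positions of 28S. The median was -0.17 from C436 to G1311, -0.17 from A2401 to T2880 and -0.08 from C3601 to C4100. That of the whole stretch described here became 0.05 where positions at 0 in either library were left out.

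**Figure D5:**
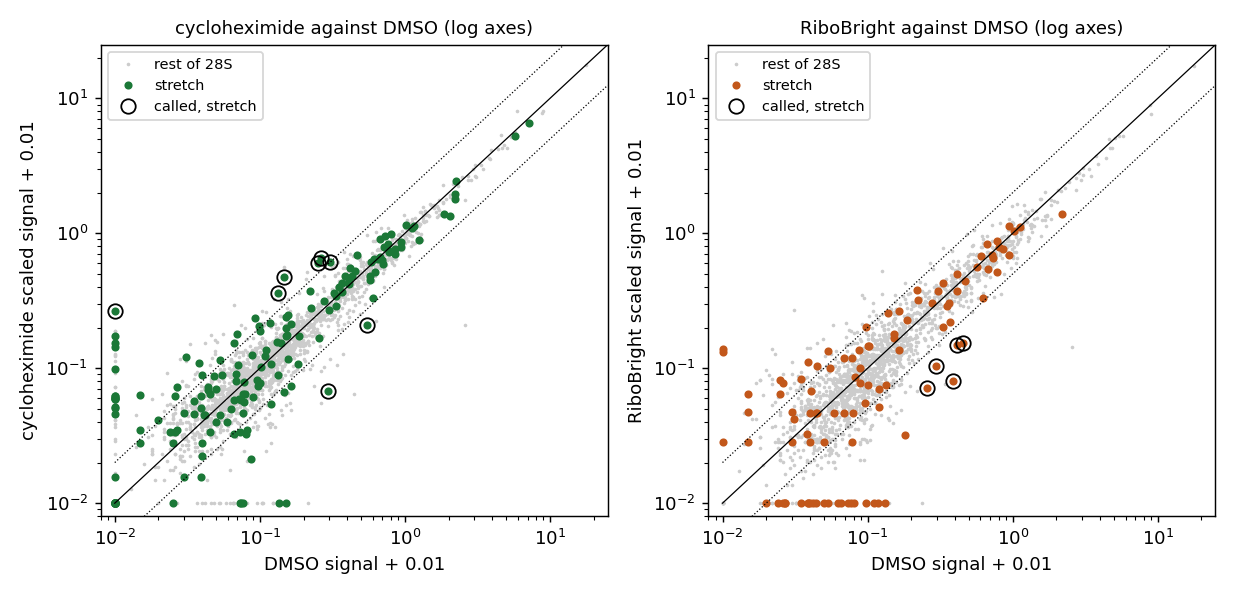
Scaled signal of cycloheximide (left) and RiboBright (right) against DMSO on log axes, with 0.01 added to every value, for the stretch (coloured) and the rest of 28S (grey). Circles mark the called positions of the stretch, 8 under cycloheximide and 5 under RiboBright, the solid line equality and the dotted lines 2-fold; the called positions lie below the most reactive members.

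Both compounds were given at 10 µM for 30 min, so their libraries were also set side by side. Of 104 positions 34 reached the level and 4 were called, all lower in RiboBright (11.8%), where the rule called 5.76% of 486 positions over 28S, 1.85% lower and 3.91% higher. They were C3033, C3566, C3567 and A3596, with log2 ratios of RiboBright to cycloheximide of -1.76, -2.59, -1.65 and -1.38. The same 4 were lower against DMSO, and both comparisons share the RiboBright library. At 1.5-fold 1 was higher and 8 lower, and with the level at the DMSO median 4 were higher and 11 lower. The 2-fold rule called 21.1% of 38 positions in the stretch from C436 to G1311, 6 higher and 2 lower. In the neighbouring stretches it called 0 of 60 and 7.84% of 51. The median log2 ratio was -0.30 over the 104 positions and -0.08 over the 1838 of 28S. It was -0.056 over the 80 positions left when exact zeros were dropped.

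The borders come from position numbers and not from the signal. A2879, the last A or C before the stretch, was at 0.370 in DMSO, 0.475 in cycloheximide and 0.268 under RiboBright. A2881, the first inside, had 0.340, 0.416 and 0.306. At the other end A3599 had 0.110, 0.104 and 0.046 and C3601, just outside, had 0.030, 0.035 and 0.144.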

How the data were processed

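The authors deposited a signal along 28S rRNA for each library, with 3 decimals, and only A and C were used here. Not every A and C has a value: of 2492, DMSO lacked 272, cycloheximide 228 and RiboBright 654. Per the submitters' processing notes the tools include Bowtie2 and cutadapt and the build is hg38, with no version or role stated. How mutations were counted, filtered by coverage, normalized or corrected for background is not given in the sources used here. Values in the table of the whole series and in the files of the 3 libraries were identical. Missing values were taken as not measured, and an exact 0 as a value. An untreated control for dimethyl sulfate was not analysed here, so misreading that does not come from the reagent stays in the signal.

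Scaling, ratios and calls were computed over all 28S with pandas 2.3.3 and numpy 2.4.6 and then restricted to A2881 to G3600. The code that makes the calls was checked on simulated data for recovery of planted changes, which says nothing about replicate error. The fold was computed with ViennaRNA 2.7.2 at 37 °C on the letters of the position names, and correlations with scipy 1.17.1. Named positions are the 15 highest DMSO signals, every called position, the border positions and the members of clusters. The adenosines, tract and strand examples, loop classes, run lengths and pair neighbours were added after the values were seen. The members and lists were chosen with earlier results of these data known. Alternatives covered scaling, pseudocount, level, size of change, positions, borders, summary and fold.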

Additional observations from a re-analysis of the deposited data

How the results depend on the processing

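Of 90 alternatives, 63 kept the result within 1.5 times (counts, signals), 0.1 (log2 medians) or a 95% exact binomial interval (share listed). For both RiboBright comparisons, keeping only positions listed in all 3 libraries could not change the result. All 104 positions that RiboBright listed were also listed in DMSO and cycloheximide. With 1 library per treatment, leaving out a replicate was not an option. No paired analysis was possible because each treatment has 1 library and no comparison has a test.

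Under cycloheximide, the 8 called positions became 1 among positions listed in all 3 libraries, 1 with no missing value within 25 nt, 23 with the level at the DMSO median, 0 at its 90th percentile and 3 at 3-fold. The median log2 ratio became 0.18 with no missing value within 25 nt and 0.22 as a mean. Under RiboBright, the 5 called positions became 1 with borders 60 nt narrower, 15 at the DMSO median (5 higher), 0 at the 90th percentile, 13 at 1.5-fold (3 higher) and 2 at 3-fold. The median became -0.028 without scaling, -0.57 with no missing value within 25 nt, -0.39 as a mean and 0.047 without zeros. For RiboBright against cycloheximide, the 4 called positions became 1 with narrower borders, 15 at the DMSO median (4 higher), 0 at the 90th percentile and 9 at 1.5-fold (1 higher). The median became -0.59 with no missing value within 25 nt, -0.52 as a mean and -0.056 without zeros. The DMSO median of 0.068 became 0.123 without zeros. The share listed in DMSO became 46.6% with borders 60 nt narrower and 60.5% with borders 60 nt wider. The difference by predicted pairing, 0.386, became 0.107 with pairs spanning at most 150 nt and lay between 0.309 and 0.443 in the other 5 settings, which include the cycloheximide and RiboBright libraries. Causes of these changes were not tested, except that leaving out positions lowers a count. Without read counts, no depth limit can be given for single positions.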
